A study of Mus musculus with 25 samples.

Results

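A set of 9 genes that mark astrocytes was followed through a white matter stroke series: Gfap, Aqp4, Slc1a2, Slc1a3, Acsbg1, Gja1, Aldoc, Glul and Clu. They were chosen by symbol, all 9 were present among the 23351 genes of the deposited table, and all 9 passed the filter on low values described below. The libraries were made from mouse brain material taken by laser capture microdissection, a method that cuts chosen areas out of a tissue section, and are labelled as oligodendrocyte precursor cells (OPC), the dividing glia that give rise to myelin-forming oligodendrocytes. By their labels 8 libraries come from Day 5 of white matter stroke, 7 from Day 15 of white matter stroke and 10 are controls. White matter stroke is an ischaemic lesion of myelinated fibre tracts. The sources used here do not state the strain, sex or age of the mice, the treatment of the controls, how the captured areas were chosen or which library came from which animal.

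Astrocytes are the star-shaped glia of the brain, and their processes wrap synapses and cover blood vessels with endfeet. They clear glutamate from the extracellular space, convert it to glutamine, handle water and potassium, and are joined to each other by gap junctions. After an injury they become reactive, a state known for more intermediate filament protein, above all GFAP. Slc1a2, Slc1a3, Glul and Clu are known to be expressed outside astrocytes as well, so the values below are RNA levels in the captured material and not the level of a cell type. In bulk samples such as these, fewer cells of a type and less RNA per cell cannot be told apart.

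The values are RPKM, reads scaled to the length of a gene and to the size of its library, as the authors deposited them. Since RPKM is per length, genes were set side by side within a library. The gene lengths used are not stated and amplification can drop low transcripts, so an order of genes is approximate. The number of reads behind a value is unknown. Libraries differed widely: the count of genes that reached 1 RPKM was 4217 ± 1495 (SD, n = 8) at Day 5, 2980 ± 1248 (SD, n = 7) at Day 15 and 2467 ± 890 (SD, n = 10) in controls. Rn45s, from which ribosomal RNA is cut, made up 68.0% of all RPKM in Day 5 replicate 10 and 73.4% in Control replicate 5. Over the 300 pairs of libraries the median correlation of log2(RPKM + 1) across tested genes was 0.257. Of the defining OPC markers, Pdgfra, the PDGF receptor of OPC, had a median of 4.71 RPKM at Day 5, 0.643 RPKM at Day 15 and 0.607 RPKM in controls. Cspg4, the NG2 proteoglycan, had a median of 0.464 RPKM at Day 5, 0.283 RPKM at Day 15 and 0.00536 RPKM in controls. Sox10, also counted as an OPC marker here, had a median of 1.91 RPKM at Day 5, 2.35 RPKM at Day 15 and 2.01 RPKM in controls.

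Set against Pdgfra and Cspg4, the upper astrocyte genes were the more abundant ones, while the lower ones were not set apart from Pdgfra. Gfap was above Pdgfra in 25 of 25 libraries, Slc1a2 in 24, Glul in 23, Aqp4 in 21 and Slc1a3 in 20. Clu and Gja1 were above Pdgfra in 14 libraries each, Aldoc in 12 and Acsbg1 in 7. Gfap was above Cspg4 in 23 of 25 libraries. Mbp, a major myelin protein gene, was above Gfap in all but 3 libraries. The 9 genes together made up 0.133% to 2.24% of the RPKM sum without Rn45s at Day 5 (median 0.229%), 0.154% to 1.28% at Day 15 (median 0.755%) and 0.136% to 1.11% in controls (median 0.476%). The ranges of the 3 groups overlapped. Between 5 and 9 of the 9 genes reached 1 RPKM in a Day 5 library, 5 to 9 in a Day 15 library and 4 to 9 in a control library.

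Within each library the 9 genes were ranked by RPKM. Slc1a2, the main glutamate transporter of forebrain astrocytes, was among the top 3 in 22 of 25 libraries and first in 8. Gfap was first in 10 libraries, and Acsbg1 was last in 15. By group medians the order at Day 5 was Gfap, Glul, Slc1a2, Aqp4, Slc1a3, Clu, Aldoc, Gja1 and Acsbg1. At Day 15 it was Slc1a2, Aqp4, Gfap, Slc1a3, Clu, Glul, Gja1, Aldoc and Acsbg1. In controls it was Slc1a2, Glul, Gfap, Slc1a3, Aqp4, Aldoc, Gja1, Clu and Acsbg1.

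Many neighbours in these orders did not differ beyond their spread. Gfap was above Glul in 4 of 8 Day 5 libraries and in 5 of 10 controls, so neither order between these genes was fixed. Aqp4 and Slc1a3 were likewise interleaved, with Aqp4 above in 4 of 8 Day 5 libraries and 4 of 10 controls. At Day 15 Aqp4 was above Slc1a3 in 7 of 7. Other gaps held throughout: Slc1a2 was above Aldoc and above Acsbg1 in 25 of 25 libraries, and Gfap was above Gja1 and above Aldoc in 25 of 25.

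Aqp4 and Glul stood in other places at Day 15 than at Day 5 or in controls. Aqp4 was among the top 3 genes in 1 of 8 libraries at Day 5, 7 of 7 at Day 15 and 1 of 10 controls. Glul was among the top 3 in 7 of 8 libraries at Day 5, 0 of 7 at Day 15 and 7 of 10 controls. Set against each other, Aqp4 was above Glul in 0 of 8 Day 5 libraries, 7 of 7 Day 15 libraries and 0 of 10 controls. On the log2(RPKM + 1) scale, Aqp4 minus Glul was -1.47 ± 1.76 (SD, n = 8) at Day 5, 1.67 ± 0.76 (SD, n = 7) at Day 15 and -1.40 ± 1.06 (SD, n = 10) in controls. A rank within a library does not depend on how that library was scaled. This pair was picked after its values were seen, so the switch is a description without a test.

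**Figure D1:**
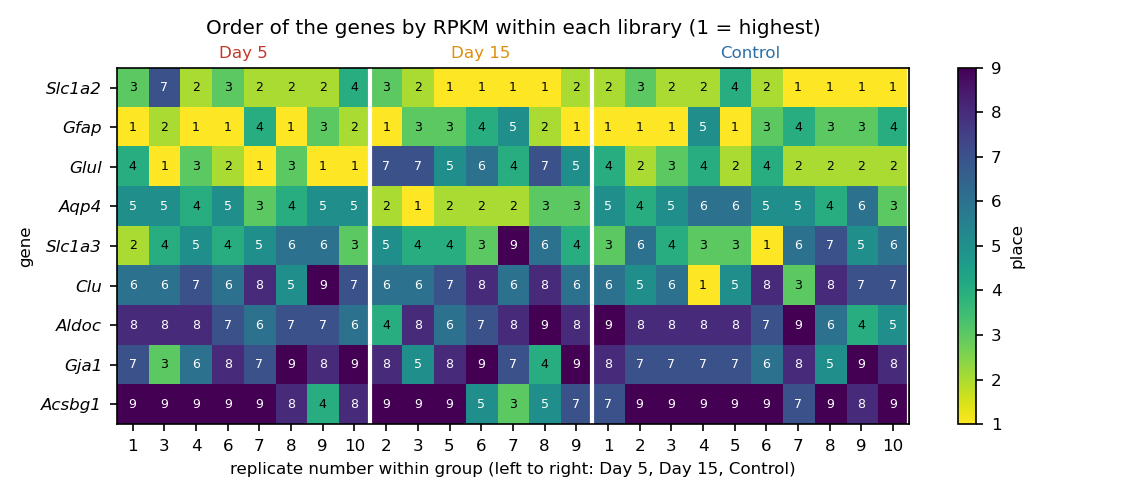
Place of each astrocyte gene by RPKM within each library (1, highest, to 9, lowest), with genes in rows and libraries in columns, Day 5 first, then Day 15, then Control. Aqp4 holds places 1 to 3 in every Day 15 library, and Glul holds places 4 to 7 there.

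The stretch before the transcription start is shown for the 3 genes with the highest median RPKM over all libraries among those in the RefSeq promoter table, Gfap, Slc1a2 and Glul. Their order relative to each other differed between libraries. Each is given on the gene's own strand, 5′ to 3′, from 250 bases before the start to the last base before it, in RefSeq's GRCm38.p6 build, which is later than the mm9 build of the expression values. Gfap lies at chr11:102897201-102897450 (minus strand), Slc1a2 at chr2:102706188-102706437 (plus strand) and Glul at chr1:153899679-153899928 (plus strand). Capitals mark matches to any of 4 short motifs of factors known in astrocytes, searched on both strands: the NFI half-site TTGGC, the SOX core ACAAT, the STAT element TTCNNNGAA and the AP-1 element TGANTCA.
Gfap: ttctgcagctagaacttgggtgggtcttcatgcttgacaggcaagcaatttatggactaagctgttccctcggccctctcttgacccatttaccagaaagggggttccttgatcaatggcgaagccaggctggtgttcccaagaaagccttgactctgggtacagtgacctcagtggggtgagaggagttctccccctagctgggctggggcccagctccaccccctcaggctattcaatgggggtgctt
Slc1a2: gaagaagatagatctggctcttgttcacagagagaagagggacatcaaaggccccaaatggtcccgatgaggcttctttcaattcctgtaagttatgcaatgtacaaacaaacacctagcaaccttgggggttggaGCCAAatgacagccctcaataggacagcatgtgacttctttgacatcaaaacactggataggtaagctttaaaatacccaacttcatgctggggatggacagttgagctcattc
Glul: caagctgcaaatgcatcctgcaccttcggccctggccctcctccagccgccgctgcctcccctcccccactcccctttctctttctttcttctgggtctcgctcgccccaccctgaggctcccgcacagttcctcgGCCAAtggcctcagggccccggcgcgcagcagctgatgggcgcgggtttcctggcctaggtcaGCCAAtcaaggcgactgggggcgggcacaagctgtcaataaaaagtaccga

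The window before Gfap held none of the 4 motifs. Slc1a2 held 1 NFI half-site, whose first base is at position -114 relative to the start. Glul held 2, at positions -114 and -51, and each overlaps a CCAAT box (CCAAT). Among all 32851 promoters of the table, 41.5% held an NFI half-site in these 250 bases, 27.7% a SOX core, 7.02% a STAT element and 6.75% an AP-1 element, so a match is common for the first and second motif. A match describes letters and not a bound site, and the absence of one says only that these letters are not in the window.

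Gfap encodes the intermediate filament protein by which astrocytes are usually stained. It was at 4.21 to 668 RPKM at Day 5 (median 19.6), 6.93 to 246 RPKM at Day 15 (median 15.1) and 2.95 to 335 RPKM in controls (median 7.13). Every group held low libraries and 1 or more very high ones, and the groups overlapped over nearly their whole range. On the log2(RPKM + 1) scale the mean was 4.87 ± 2.37 (SD, n = 8) at Day 5, 4.80 ± 2.01 (SD, n = 7) at Day 15 and 3.60 ± 1.94 (SD, n = 10) in controls. Single libraries decided the linear means: leaving out the highest library moved the mean to 33.8 RPKM at Day 5, against 113 RPKM with it, to 36.0 RPKM at Day 15, against 66.0 RPKM, and to 9.98 RPKM in controls, against 42.5 RPKM. By library, 6 of 8 Day 5 libraries and 6 of 7 Day 15 libraries were above the control median.

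Aqp4 encodes aquaporin-4, the water channel of astrocyte endfeet. It was at 2.79 to 17.3 RPKM at Day 5 (median 7.58), 3.83 to 44.2 RPKM at Day 15 (median 24.8) and 0.885 to 7.72 RPKM in controls (median 1.93). All 8 Day 5 libraries and all 7 Day 15 libraries were above the control median, and 4 of 8 and 5 of 7 were above every control. The mean was 3.01 ± 0.78 (SD, n = 8) at Day 5, 4.16 ± 1.26 (SD, n = 7) at Day 15 and 1.92 ± 0.90 (SD, n = 10) in controls on the log2(RPKM + 1) scale. Unlike Gfap, no group rested on a single library: without the highest library the means were 6.79 RPKM at Day 5, 19.0 RPKM at Day 15 and 3.06 RPKM in controls.

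Gja1 encodes connexin 43, the main gap junction protein of astrocytes. It was low, at 0.347 to 37.6 RPKM at Day 5 (median 0.739), 0.0394 to 18.8 RPKM at Day 15 (median 1.47) and 0.112 to 4.98 RPKM in controls (median 1.05). It reached 1 RPKM in 3 of 8 Day 5 libraries, 4 of 7 Day 15 libraries and 6 of 10 controls. The highest library of Day 5 and that of Day 15 stood well above the rest of their group, and the other libraries of the 3 groups were mixed.

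Slc1a2 encodes GLT-1, which takes up most synaptic glutamate in the forebrain. It was at 5.57 to 39.5 RPKM at Day 5 (median 10.7), 8.21 to 213 RPKM at Day 15 (median 41.9) and 2.21 to 67.0 RPKM in controls (median 27.6). In all, 5 of 7 Day 15 libraries were above every Day 5 library, whereas 1 of 7 was above every control. Only 1 of 8 Day 5 libraries was above the control median. The mean was 3.78 ± 0.87 (SD, n = 8) at Day 5, 5.44 ± 1.38 (SD, n = 7) at Day 15 and 4.31 ± 1.47 (SD, n = 10) in controls on the log2(RPKM + 1) scale.

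Slc1a3 encodes GLAST, the second astrocyte glutamate transporter. It was at 1.49 to 45.1 RPKM at Day 5 (median 4.87), 0.569 to 19.8 RPKM at Day 15 (median 3.84) and 1.25 to 21.1 RPKM in controls (median 3.03). The 3 groups covered much the same range. Slc1a2 was above Slc1a3 in 5 of 8 Day 5 libraries, 7 of 7 Day 15 libraries and 8 of 10 controls. Slc1a2 minus Slc1a3 was 0.94 ± 1.38 (SD, n = 8) at Day 5, 2.79 ± 1.60 (SD, n = 7) at Day 15 and 1.98 ± 1.67 (SD, n = 10) in controls on the log2(RPKM + 1) scale.

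Glul encodes glutamine synthetase, which turns the glutamate taken up by these transporters into glutamine. It was at 8.23 to 785 RPKM at Day 5 (median 12.9), 0.841 to 15.3 RPKM at Day 15 (median 3.25) and 1.64 to 31.1 RPKM in controls (median 10.1). In all, 5 of 7 Day 15 libraries were below every Day 5 library, and the other 2 lay within the Day 5 range. The Day 5 mean of 109 RPKM was made by replicate 3 alone, and without it the mean was 13.0 RPKM. On the log2(RPKM + 1) scale the mean was 4.48 ± 2.11 (SD, n = 8) at Day 5, 2.49 ± 1.11 (SD, n = 7) at Day 15 and 3.32 ± 1.20 (SD, n = 10) in controls. The transporter Slc1a2 was above the enzyme Glul in 3 of 8 Day 5 libraries, 7 of 7 Day 15 libraries and 8 of 10 controls.

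Aldoc encodes aldolase C, the brain form of the glycolytic enzyme aldolase. It was at 0.260 to 4.03 RPKM at Day 5 (median 1.35), 0.334 to 14.9 RPKM at Day 15 (median 1.35) and 0.00306 to 3.41 RPKM in controls (median 1.28). The medians were nearly the same, and 3 of 7 Day 15 libraries were above every control.

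Acsbg1 encodes an acyl-CoA synthetase that activates long-chain fatty acids. It was the lowest of the 9, at 0 to 3.67 RPKM at Day 5 (median 0.485), 0.0233 to 16.3 RPKM at Day 15 (median 1.11) and 0 to 2.70 RPKM in controls (median 0.284). It reached 1 RPKM in 2 of 8 Day 5 libraries, 4 of 7 Day 15 libraries and 1 of 10 controls. These 7 libraries are the fewest with which a gene passes the filter, so its entry into the test rested on the group in which it was highest.

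Clu encodes clusterin, a secreted chaperone that also binds lipids. It was at 0.266 to 15.4 RPKM at Day 5 (median 1.58), 0.516 to 14.1 RPKM at Day 15 (median 3.67) and 0.240 to 72.1 RPKM in controls (median 1.04). The control range contained both others. Control replicate 4 held the highest value, and without it the control mean was 2.47 RPKM, against 9.43 RPKM with it.

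**Figure D2:**
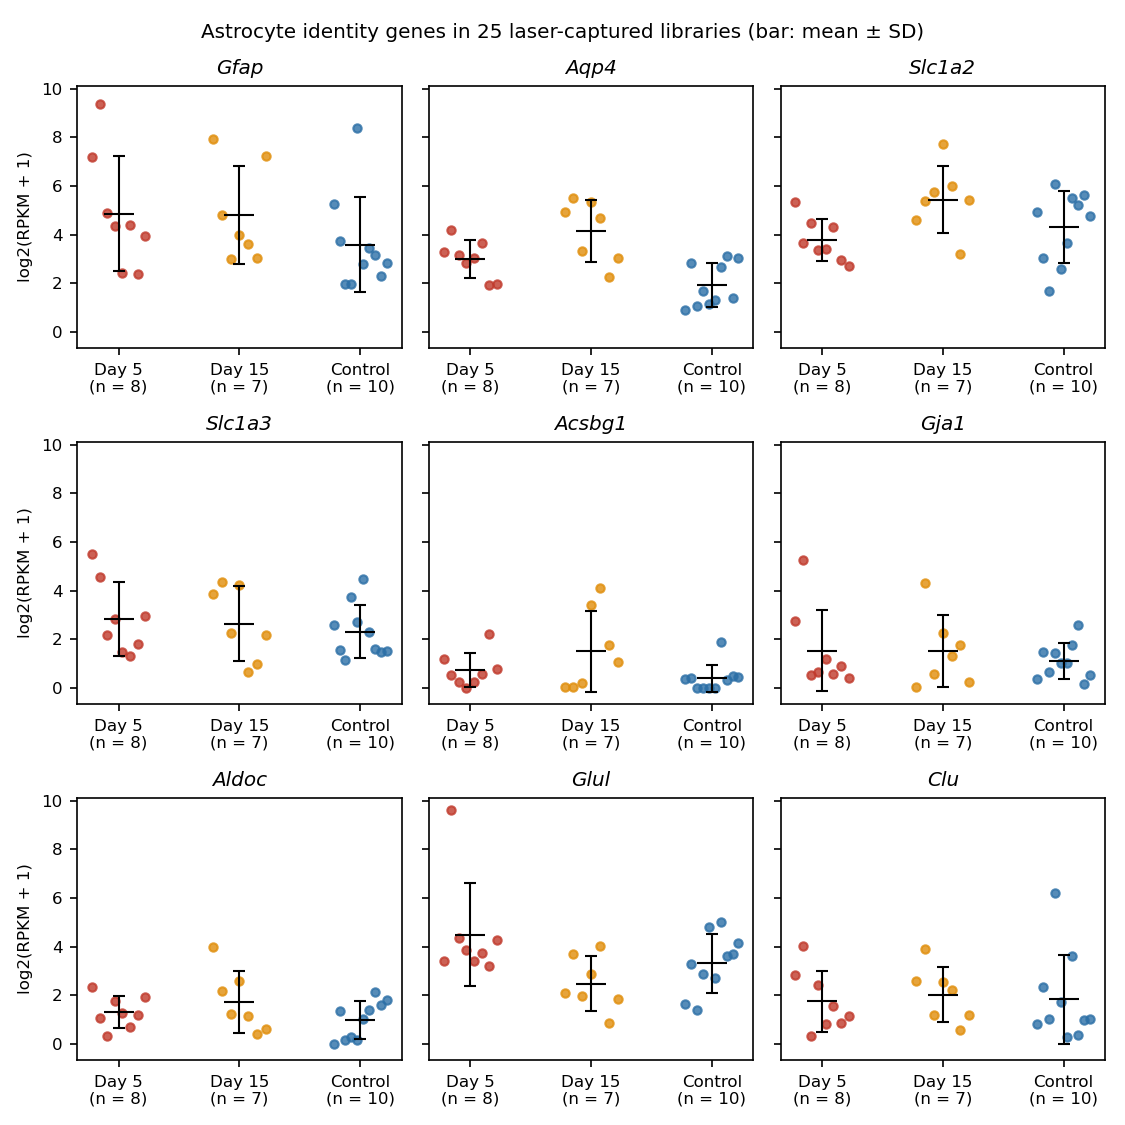
log2(RPKM + 1) of each astrocyte gene in each of the 25 libraries (points), with the group mean and SD (bars), for Day 5 (n = 8), Day 15 (n = 7) and Control (n = 10). Aqp4 shows the clearest step, with 5 of 7 Day 15 libraries above every control. Single points far above the rest of their group appear for several genes, among them Gfap, Glul, Acsbg1, Gja1 and Clu.

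The groups were compared with limma, a linear model that shares the estimate of the spread across genes, on log2(RPKM + 1) of the 4319 genes that reached 1 RPKM in 7 or more libraries. Changes below are on that scale, which understates the change of low genes, and adjusted p-values are Benjamini-Hochberg values from limma over all 4319 genes with a threshold of 0.05. No library is tied to an animal in the labels, so these p-values measure the spread between the libraries and would be too small where an animal gave more than 1 of them. In none of the 27 comparisons of an astrocyte gene between a pair of groups were the groups fully apart. How often groups were fully apart among all 4319 tested genes was not counted. Whether the astrocyte genes differ from other genes in this respect therefore cannot be told.

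At Day 5 against control, 0 of 9 astrocyte genes passed the limma test, where 6.04% of all tested genes did (6.02% higher and 0.0232% lower). At an unadjusted p under 0.05 the count was also 0 of 9, against 1121 of 4319 genes. The changes were 1.27 ± 0.88 (SE) for Gfap (adjusted p = 0.354), 1.16 ± 0.73 (SE) for Glul (adjusted p = 0.304) and 1.09 ± 0.61 (SE) for Aqp4 (adjusted p = 0.248). They were -0.52 ± 0.71 (SE) for Slc1a2 (adjusted p = 0.660) and between -0.090 and 0.52 for Slc1a3, Acsbg1, Gja1, Aldoc and Clu. The whole distribution was displaced in this comparison: the median change of all tested genes was 0.61, and 84.9% of them were above 0. Read against that, 7 of 9 astrocyte genes were above 0 with a median of 0.44, and 3 of 9, Gfap, Glul and Aqp4, were above the median of all genes. Slc1a2 stood near the lower end of all genes, with 2.94% of them showing a smaller change. The place of the 9 against the median of all genes depended on the filter. With no filter that median was 0.077 over 22610 genes, and 7 of 9 astrocyte genes were above it. Without Day 5 replicate 3 the value for Glul was 0.43.

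In the comparison of Day 15 with control, 0 of 9 astrocyte genes passed, where 0.0926% of all tested genes did by the same limma test. At an unadjusted p under 0.05 there were 2 of 9, against 383 of 4319 genes. These were Aqp4 and Acsbg1. Aqp4 had the largest change of the 9, 2.23 ± 0.63 (SE), with an unadjusted limma p of 0.000914 and an adjusted p of 0.134, and 99.1% of all tested genes had a smaller change. For Acsbg1 the change was 1.12 ± 0.46 (SE) with an adjusted limma p of 0.438, and it was 0.69 without Day 15 replicate 7. Since Acsbg1 entered the test mainly through Day 15 libraries, its value supports nothing beyond this description. Gfap stood at 1.21 ± 0.91 (SE) (adjusted p = 0.743) and Slc1a2 at 1.14 ± 0.73 (SE) (adjusted p = 0.679). Glul alone was below 0, at -0.83 ± 0.76 (SE) (adjusted p = 0.816). The other 4 lay between 0.19 and 0.75. The median over the 9 genes was 0.75, and that of all tested genes 0.17, with 8 of 9 astrocyte genes above the median of all. This median, the 8 of 9 and the 2 of 9 all include Acsbg1, so the limit on its entry holds for them too.

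Between Day 15 and Day 5, 0 of 9 astrocyte genes passed, as did 0% of all tested genes by limma. At an unadjusted p under 0.05 there were 2 of 9, against 633 of 4319 genes, and they went in opposite directions. Slc1a2 stood at 1.66 ± 0.77 (SE), with an unadjusted limma p of 0.0359 and an adjusted p of 0.302, and 99.7% of tested genes had a smaller change. Glul stood at -1.99 ± 0.80 (SE), with an unadjusted limma p of 0.0157 and an adjusted p of 0.258, and 1.09% of genes had a smaller change. Without Day 5 replicate 3 Glul stood at -1.26. Aqp4 stood at 1.15 ± 0.66 (SE) (adjusted p = 0.423), and Gfap at -0.062 ± 0.96 (SE) (adjusted p = 0.983). Here the median change of all tested genes was -0.44 and that of the 9 genes 0.28, with 8 of 9 above the median of all. The median of the 9 and the 8 of 9 again include Acsbg1, with the same limit. The 3 comparisons share their libraries pairwise, so their values are not independent of each other.

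**Figure D3:**
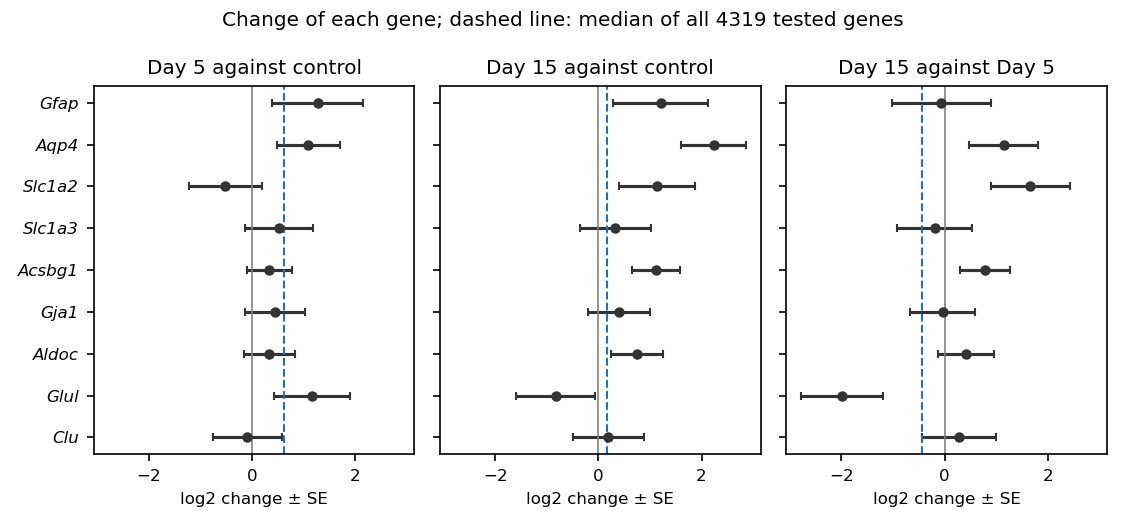
limma log2 change ± SE of each astrocyte gene in the 3 comparisons, on the log2(RPKM + 1) scale, with the median of all 4319 tested genes as a dashed line and no change as a grey line. Aqp4 lies farthest right at Day 15 against control (2.23), and Slc1a2 (1.66) and Glul (-1.99) lie farthest apart at Day 15 against Day 5.

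How the libraries were scaled moved the Day 5 values most. When each library was rescaled by its upper quartile, to an equal sum without Rn45s, or by quantile normalization, the median change of all genes at Day 5 against control became 0.10, 0.15 and -0.018. Aqp4 then stood at 0.25, 0.32 and 0.22, Gfap at 0.29, 0.37 and 0.36, and Slc1a2 at -1.49, -1.40 and -1.46, in the same order of scalings. The number of the 9 genes above 0 became 4, 4 and 3, against 7 as deposited. Over all genes the calls became 18 higher and 4 lower, 29 higher and 4 lower, and 14 higher and 6 lower, against 260 higher and 1 lower as deposited. At Day 15 against control the median of the 9 became 0.40, 0.25 and 0.19, against 0.75 as deposited. The median of all genes became -0.024, -0.097 and -0.026, against 0.17. The number of the 9 genes above it was 6 each time, against 8. Aqp4 at Day 15 against control kept the largest change of the 9 under each scaling, at 1.86, 1.69 and 1.67, with adjusted limma p-values from 0.165 to 0.230. The 2 opposite values at Day 15 against Day 5 kept their directions. Slc1a2 was larger, at 2.17, 1.93 and 1.97, against 1.66 as deposited. Glul was nearer to no change, at -1.48, -1.70 and -1.63, against -1.99 as deposited.

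**Figure D4:**
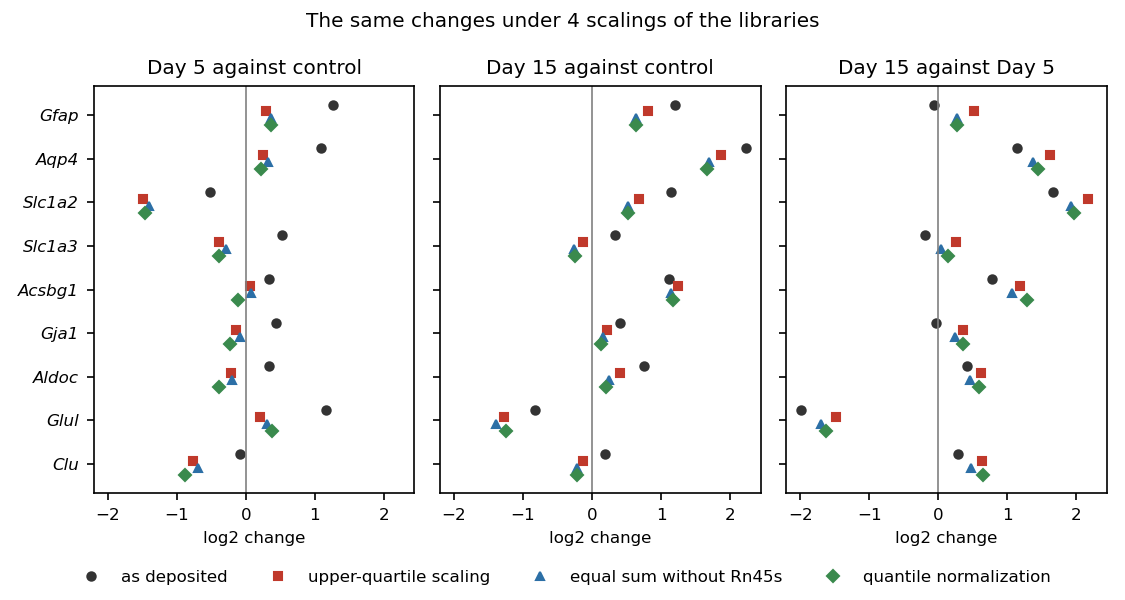
limma log2 change of each astrocyte gene in the 3 comparisons with the values as deposited and under 3 rescalings of the libraries (marker shapes). At Day 5 against control the rescaled points lie left of the deposited ones for all 9 genes, while Aqp4 at Day 15 against control stays between 1.67 and 2.23.

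The replicate numbers in the labels run to 10, and values differed between low and high numbers, although the labels do not say that a number marks a batch. Aqp4 at Day 15 against control was 3.28 among replicates 1 to 6 (4 against 6 libraries) and 0.76 among replicates 7 to 10 (3 against 4 libraries). The control median of Aqp4 was 1.35 RPKM among numbers 1 to 6 and 6.40 RPKM among numbers 7 to 10. Slc1a2 at Day 15 against control was 2.21 in the lower range and -0.40 in the higher. Glul at Day 5 against control was 2.53 in the lower range and -0.47 in the higher, and the lower range contains Day 5 replicate 3. The directions at Day 15 against Day 5 held in both ranges, with Slc1a2 at 1.66 and 1.52 and Glul at -2.65 and -1.39, low numbers first. Adjusted limma p-values within the ranges were 0.203 or more for each of these.

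A list of other astrocyte-enriched genes was read in the same way. Of its 50 genes 49 were in the table and 29 were tested. At Day 5 against control 3 of 29 rose and none fell (10.3%, beside 6.04% of all genes), and the median change was 0.37, below the 0.61 of all genes. The 3 were Apoe, the main lipid carrier of the brain, at 3.83 ± 0.73 (SE; adjusted limma p = 0.00204), Prdx6, a peroxiredoxin that reduces lipid peroxides, at 2.47 ± 0.68 (SE; adjusted limma p = 0.0263), and Pla2g7, a secreted phospholipase that degrades platelet-activating factor, at 1.97 ± 0.59 (SE; adjusted limma p = 0.0371). Apoe is known to be made by macrophages and microglia as well as astrocytes. Under the 3 rescalings Apoe passed each time (2.89, 3.00 and 3.05), whereas adjusted p was 0.168 to 0.211 for Prdx6 and 0.286 to 0.357 for Pla2g7. With a covariate for detected genes none of the 3 passed, and Apoe stood at 2.55 (adjusted limma p = 0.167). The mean number of detected genes was 4217 at Day 5 and 2467 in controls. This covariate can therefore take up part of a group difference. Within replicate numbers 1 to 6 Apoe stood at 3.56 (adjusted limma p = 0.0869) and within 7 to 10 at 4.38 (adjusted limma p = 0.0574). Prdx6 also missed the threshold without Day 5 replicate 3 or 4, and Pla2g7 in 10 of the 25 fits that each left out 1 library. Under the rescalings the list's median at Day 5 lay below 0, at -0.32, -0.26 and -0.44.

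Apoe was at 15.0 to 168 RPKM at Day 5 (median 76.0), 4.30 to 203 RPKM at Day 15 (median 15.6) and 1.51 to 17.2 RPKM in controls (median 3.49). Its Day 5 range touched that of the controls only at the lower end. For Day 15 against control 0 of the 29 passed by limma (4 at an unadjusted p under 0.05), with a median change of 0.39. For Day 15 against Day 5 0 of 29 passed (1 at an unadjusted p under 0.05), with a median of -0.085.

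The genes around each role of the 9 gave few calls. Among acyl-CoA synthetases and lipid carriers, the list closest to Acsbg1 and Clu, 3 of 9 tested genes rose at Day 5 against control. None fell, and the share called was 33.3%, beside 6.04% of all tested genes. Beside Apoe the genes that rose were Slc27a1, a fatty acid transport protein, at 2.00 ± 0.53 (SE; adjusted limma p = 0.0226), and Acsl5, another long-chain acyl-CoA synthetase, at 1.62 ± 0.50 (SE; adjusted limma p = 0.0427). Slc27a1 reached 1 RPKM in 5 of 8 Day 5 libraries, 2 of 7 Day 15 libraries and 1 of 10 controls. For Acsl5 it was 5 of 8, 1 of 7 and 1 of 10. Both entered the test mainly through Day 5 libraries, so their calls and the share of 33.3% support nothing beyond this description. Under the 3 rescalings Apoe alone passed in this list. Slc27a1 also missed the threshold without Day 5 replicate 3 (adjusted limma p = 0.0617), and Acsl5 in 11 of the 25 fits that each left out 1 library. No gene of the other role lists passed in any comparison by limma: 3 tested filament genes, 9 of endfoot water, ion and potassium handling, 3 of glutamate uptake and glutamine cycling, 2 connexins and 9 of glycolysis.

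Single neighbours are given for orientation, none past the threshold. At Day 5 against control Vim, the vimentin filament that reactive astrocytes share with Gfap, stood at 1.17 ± 0.80 (SE; adjusted limma p = 0.345). Glud1, glutamate dehydrogenase, stood at 1.80 ± 0.73 (SE; adjusted limma p = 0.112), and Ldha, lactate dehydrogenase A, at 1.85 ± 0.61 (SE; adjusted limma p = 0.0551). In the Day 15 comparison with control Dag1, the dystroglycan that anchors endfeet to the vessel wall, stood at 0.87 ± 0.60 (SE; adjusted limma p = 0.717). The genes that work beside Aqp4 at the endfoot had a median change of 0.0026 over 9 tested genes in that comparison, where Aqp4 stood at 2.23.

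Markers of other cell types were summed in the same libraries. For 12 macrophage markers the summed RPKM was 157 to 2617 at Day 5, 57.3 to 628 at Day 15 and 1.20 to 130 in controls. For 15 microglia markers it was 81.4 to 685 at Day 5, 50.2 to 1650 at Day 15 and 10.1 to 73.9 in controls. At Day 5 against control 8 of 9 tested macrophage markers and 5 of 14 tested microglia markers rose. These were 88.9% and 35.7%, beside 6.04% of all tested genes. They were led by Lyz2 (lysozyme) at 5.40 ± 0.83 (SE; adjusted limma p = 0.000136). The median number of macrophage markers at 1 RPKM or more was 9.5 at Day 5 and 4 in controls. For microglia markers it was 11 and 7. A marker could thus enter the test through the Day 5 libraries, so the shares of 88.9% and 35.7% are a description. Under each of the 3 rescalings 5 of 9 macrophage markers and 0 of 14 microglia markers passed. Over all 4319 tested genes 20 to 33 passed under these rescalings. With a covariate for detected genes 0 of all tested genes passed in this comparison, and Lyz2 stood at 4.34 (adjusted limma p = 0.0691). This covariate itself differed between the groups, so its effect and that of the group cannot be told apart. For Day 15 against control 0 of 9 and 0 of 14 passed by limma, with 5 macrophage and 10 microglia markers at an unadjusted p under 0.05. For 12 myelin markers the sum was 98.4 to 1206 at Day 5, 46.5 to 581 at Day 15 and 142 to 1334 in controls, and for 15 OPC markers it was 21.5 to 114 at Day 5, 16.4 to 284 at Day 15 and 10.6 to 115 in controls. The 11 endothelial markers summed to 4.16 to 37.5 RPKM at Day 5, 1.03 to 31.9 RPKM at Day 15 and 1.15 to 36.0 RPKM in controls, and of these Cldn5, a tight junction gene, was under 1 RPKM in every library. For 11 neuronal markers the sum was 1.32 to 6.55 at Day 5, 1.86 to 80.0 at Day 15 and 4.65 to 20.6 in controls, and Snap25 of that list had a median of 0.608 RPKM at Day 5, 0.938 RPKM at Day 15 and 3.40 RPKM in controls. What part these cell types have in the values of the 9 genes was not tested. With the number of genes at 1 RPKM or more as a term in the fit, the median change of the 9 was -0.25 at Day 5 against control, 0.72 at Day 15 against control and 0.60 at Day 15 against Day 5. In that fit Gfap stood at -0.25 and Glul at 0.063 at Day 5 against control, and Aqp4 at 2.12 at Day 15 against control (adjusted limma p = 0.121).

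Finally, the 9 genes were compared with each other across libraries. Spearman's rho was computed over the 25 libraries on quantile-normalized log2(RPKM + 1), as a description, since the points share their scaling and their groups. Among the 36 pairs the median rho was 0.14, from -0.20 to 0.51, with 30 pairs above 0, and over all pairs of tested genes it was -0.00077. The highest were Clu with Gja1 (0.51), Acsbg1 with Slc1a2 (0.50) and Aqp4 with Slc1a2 (0.47). With the values as deposited the median was 0.24 among the 9 genes and 0.23 over all gene pairs, so on that scale the pairs lay at the level of any pair. The genes most like Aqp4 were Bms1 (0.72), Asph (0.68) and Suv420h1 (0.64), those most like Gfap were Abcc4 (0.70), Slc15a3 (0.66) and Srrm1 (0.62), and those most like Glul were Mast4 (0.78), Ino80d (0.65) and Arf1 (0.64). For Slc1a2 they were Gpr155 (0.71), Strbp (0.70) and Fbxw11 (0.67). Of the 27 places so filled for the 9 genes, 0 went to a gene of either astrocyte list on either scale. The lists held only 9 and 29 of the 4319 tested genes, so a count of 0 is near their share and says little.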

How the data were processed

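RNA-seq was analysed in 25 laser-captured mouse libraries (8 Day 5, 7 Day 15, 10 Control), grouped by their labels. A Nugen Ovation kit amplified the cDNA, and Illumina TruSeq and Nugen libraries were read as 100 bp paired ends, per the labels' protocols. The tools were STAR 2.1.4a, HTSeq and CASAVA 1.8.3 and the build mm9, per the submitters' processing notes. The authors deposited RPKM per gene and library. The sources used here do not state the reads it is scaled to, gene lengths, annotation or strand, so genes that overlap or share reads are uncertain. Values did not step in whole reads, so depth and counting error are unknown. Amplification of little RNA can drop low transcripts, so a value near 0 may be a dropout.

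From these values, log2(RPKM + 1) was fitted for all 3 groups together with limma 3.58.1 in R 4.3.3 (trend, robust, two-sided) over 4319 genes at 1 RPKM or more in 7 or more libraries. A gene was called where its Benjamini-Hochberg adjusted p was under 0.05. The fit was tested on simulated data. All 9 genes are named. From each other list the 3 genes with the smallest p in a comparison could be named, beside the markers Pdgfra, Cspg4, Sox10, Mbp, Snap25, Cldn5, Aif1 and Lyz2, and for likeness the 3 genes with the highest Spearman rho. The genes, lists and tests were chosen with earlier results of these data known. Upstream sequences come from RefSeq (GRCm38.p6), where 7 of the 9 symbols were matched for use.

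The alternatives tried were 3 rescalings, a pseudocount of 0.1, a filter at a mean RPKM of 5 or none, a replicate block, detected genes or the range of replicate numbers as a covariate, fits within number ranges, library weights, the compared groups alone, and leaving out each library. Leaving out the 2 libraries dominated by Rn45s was chosen after seeing the data.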

Additional observations from a re-analysis of the deposited data

Results flagged for a closer look

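Among the 27 groups of values of the 9 genes, 3 held a library far from the rest, and chance alone flags about 1 group in 20. Gfap in Control replicate 5 was 335 RPKM, with the next control at 37.3 RPKM. That library is one of the pair in which Rn45s took most of the RPKM sum. Without it the Gfap change against control was 1.80 at Day 5 and 1.74 at Day 15, against 1.27 and 1.21 with it. Other single libraries moved it the other way: it was 0.62 at Day 5 without Day 5 replicate 3 and 0.68 at Day 15 without Day 15 replicate 2.

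Acsbg1 in Control replicate 7 was 2.70 RPKM, while the other controls were at 0 to 0.400 RPKM. Glul in Day 5 replicate 3 was 785 RPKM, while the other Day 5 libraries were at 8.23 to 19.7 RPKM. The same library held the highest Gfap value of the series, 668 RPKM, and the most genes at 1 RPKM or more, 6592. Without it the Glul change at Day 5 against control was 0.43, against 1.16 with it. What set these libraries apart was not tested.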

How the results depend on the processing

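Under every alternative run, 0 of the 9 genes passed in any comparison. The filter at a mean RPKM of 5 left Acsbg1, Gja1 and Aldoc untested, with means over all libraries of 1.64, 3.56 and 2.15 RPKM. The median change of the 9 took the other sign at Day 5 against control under upper-quartile scaling (-0.14), quantile normalization (-0.23), an equal sum without Rn45s (-0.082), the detected-gene covariate (-0.25) and within numbers 7 to 10 (-0.40), and at Day 15 against control within numbers 7 to 10 (-0.16). Of 1044 single-gene values under the alternatives 967 kept their direction and 77 took the other, and the lowest adjusted limma p was 0.0756, for Aqp4 at Day 15 against control without Day 15 replicate 8. Of the 27 gene comparisons 9 kept 1 direction throughout. The cause of the turns below was not tested.

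At Day 5 against control, upper-quartile scaling turned Slc1a3 to -0.38, Gja1 to -0.14 and Aldoc to -0.21. Quantile normalization turned Slc1a3 to -0.39, Acsbg1 to -0.12, Gja1 to -0.23 and Aldoc to -0.39. An equal sum without Rn45s turned Slc1a3 to -0.29, Gja1 to -0.082 and Aldoc to -0.21. A covariate for detected genes turned Gfap to -0.25, Slc1a3 to -0.35 and Gja1 to -0.46. Clu turned to 0.014 with a pseudocount of 0.1 and to 0.0089 with the number range as a covariate. Numbers 1 to 6 alone turned Slc1a2 to 0.55 and Clu to 0.33, and numbers 7 to 10 alone turned Gja1, Aldoc and Glul to -0.47 each.

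For Day 15 against control, the upper-quartile, quantile and equal-sum values were -0.13, -0.25 and -0.26 for Slc1a3 and -0.13, -0.23 and -0.22 for Clu. Clu also turned with the detected-gene covariate (-0.00161) and with library weights (-0.026), as did Slc1a3 with weights (-0.15). Numbers 7 to 10 alone turned Slc1a2 to -0.40, Slc1a3 to -0.47, Gja1 to -0.14, Aldoc to -1.02 and Clu to -0.16. At Day 15 against Day 5, the 3 rescalings gave 0.52, 0.28 and 0.27 for Gfap, 0.25, 0.15 and 0.034 for Slc1a3, and 0.36, 0.35 and 0.24 for Gja1. The detected-gene covariate gave 1.01 for Gfap, 0.42 for Slc1a3 and 0.60 for Gja1, and library weights gave 0.59 for Gfap and 0.0535 for Gja1. Numbers 7 to 10 alone gave 1.35 for Gfap, 0.34 for Gja1 and -0.55 for Aldoc.

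Leaving out 1 library at a time turned some small values. Clu ranged from -0.42 to 0.39 at Day 5 against control, -0.12 to 0.67 at Day 15 against control and -0.032 to 0.61 at Day 15 against Day 5. Gja1 ranged from -0.093 to 0.60, -0.060 to 0.65 and -0.50 to 0.50 in the same order. At Day 15 against Day 5 Gfap ranged from -0.59 to 0.58 and Slc1a3 from -0.48 to 0.19.

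Same-numbered libraries of different groups showed little shared deviation (20 pairs, r from -0.057 to 0.084, 0 over 0.1). Differently numbered libraries were not set beside them and the libraries were variable, so a pairing by number cannot be decided from this. With the replicate block, the 9 genes gave 0 calls, Slc1a3 at Day 15 against Day 5 turned to 0.022, and 499 of all genes passed at Day 5 against control, in place of 261. That count was 553 with a pseudocount of 0.1, 24 with no filter, 119 at a mean RPKM of at least 5, 22, 20 and 33 under upper-quartile, quantile and equal-sum scaling, 0 with the detected-gene covariate, 398 with the number range, 4 within each number range, 597 with weights and 96 to 418 without 1 library. At Day 15 against control, 4 became 38 with a pseudocount of 0.1, 11 at a mean RPKM of at least 5, 9 under upper-quartile scaling, 29 with weights, 2 with the compared groups alone, 1 with an equal sum, with the detected-gene covariate or without the 2 libraries dominated by Rn45s, 0 with no filter or within either number range, and 0 to 6 without 1 library. At Day 15 against Day 5 it was 0 under each of these and 0 to 8 without 1 library.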

Other observations

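Day 5 replicate 1 and replicate 3 held the highest Gfap and Slc1a3 values of their group. Slc1a3 was 45.1 RPKM in replicate 1 and 22.7 RPKM in replicate 3, and no other Day 5 library passed 6.88 RPKM. Clu in Control replicate 4 was 72.1 RPKM, the highest of the 9 genes in that library, where Gfap stood at 2.97 RPKM. No test was run on these values.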
